A study of Homo sapiens with 4 samples.

Results

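Long intergenic noncoding RNAs with readable signal were examined in SCP2 cells, a human breast cancer line. A probe set, the group of short probes that reports on 1 transcript, was included if the annotation gave it exactly 1 gene symbol, that symbol began with LINC followed by digits, and its highest deposited intensity over the 4 arrays was at or above 0.38. These conditions held for 214 of the 1084 probe sets with such a symbol, and for 169 of the 840 genes they stand for, on arrays of 54675 probe sets. Of the 169 genes, 141 had 1 included probe set and 28 had 2 or more. SCP2 is known as a bone-colonising subline grown from a single cell of the MDA-MB-231 line, and the study's title concerns suppression of bone metastasis by DLC1. There were 4 groups of 1 array each: vector control cells, vector control cells treated with TGF-beta, cells labelled as overexpressing DLC1, and those cells treated with TGF-beta. All 4 share the SCP2 background. The dose and duration of TGF-beta, the construct's promoter and whether the DLC1 cells were a pool or a clone were given by no source used here. No group has a replicate, so no difference below has an error or a p-value.

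Long intergenic noncoding RNAs are transcripts from between protein-coding genes that are not known to encode a protein. Most are spliced and polyadenylated like messenger RNA but less abundant and more restricted to particular cell types, and some act on chromatin or on genes beside them. LINC symbols are placeholders given in order of approval, so neighbouring numbers share no function. TGF-beta is a cytokine that signals through SMAD transcription factors and is released from bone matrix. Oligo-dT priming, named in the labels' protocols, favours polyadenylated transcripts.

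The 4 arrays had median intensities of 0.38 to 0.39 and 25th percentiles of 0.14. All 5 mesenchymal-like markers of this kind of line were measured above the limit, with summed intensities of 427 to 517, among them the vimentin gene VIM at 160 to 205. Of the 6 luminal markers 4 reached the limit, with sums over all 6 of 67.9 to 76.6. The keratin genes KRT18 and KRT8 read 56.83 to 65.09 and 6.25 to 8.06, GATA3 3 to 4.59 and the estrogen receptor gene ESR1 0.39 to 0.46, while the progesterone receptor gene PGR and FOXA1 stayed at or under 0.12. Leukocyte, endothelial and fibroblast markers summed to 1.75 to 2.60, 1.03 to 1.28 and 0.87 to 1.09, with 2 of 4, 1 of 3 and 1 of 3 at or above 0.38, and the leukocyte gene PTPRC stayed at or under 0.29. The lysozyme gene LYZ, a leukocyte marker, read 0.45 and 0.40 in the vector arrays and 0.20 and 0.17 in the DLC1-labelled arrays, and its part in the differences below was not tested. The DLC1 transcript did not settle the labels. Its probe set 210762_s_at read 1.77 and 3.38 in the vector array and the DLC1-labelled array without TGF-beta, and 2.51 and 3.64 with it. Another, 224822_at, read 1.79 and 1.44, and 2.41 and 1.69. The arrays are therefore called those labelled DLC1, and every direction between the backgrounds rests on that label.

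The limit of 0.38 is about the middle of all values on an array, and no detection call was used, so passing it does not by itself show that a gene is expressed. Of LINC probe sets 19.7% reached it, against 63.2% of the 36604 probe sets with 1 symbol that name a protein-coding gene and 53.5% of all probe sets. The median of the highest value was 0.795 for the included LINC probe sets and 2.53 for the included protein-coding ones. These levels are those the rule selected on and are given as a description. Just inside the limit, LINC00997, LINC00491 and LINC02361 peaked at 0.38 and LINC00656 and LINC02837 at 0.39. Just outside, LINC00269, LINC01756, LINC02249, LINC02703 and LINC00668 peaked at 0.37. Nothing in the values sets these neighbours apart.

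Most included probe sets gave a similar reading on all 4 arrays. The limit was reached on all 4 arrays by 168 probe sets, on 3 by 18, on 2 by 11 and on a single array by 17. The last 17 passed only through the array where they were high. The highest of the 4 values exceeded the lowest by a median of 1.33-fold, against 1.30-fold for all 29246 probe sets that reached the limit. The highest value lay under 1 for 128 of the 214 and at or above 10 for 7.

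Intensities of different probe sets depend on the probes as well as the RNA and are not set against each other here, so the next readings only show which RNAs gave ample signal. LINC00623, by 229429_x_at, read 12.65 in the vector array, 21.74 in the vector array with TGF-beta, 11.42 in the DLC1-labelled array and 16.56 in that array with TGF-beta. It was higher with TGF-beta in each background, by 0.78 and 0.54 on the log2 scale. The suffix _x_at marks probes that can also bind other transcripts, so this signal may not be LINC00623 alone, and the same holds for LINC00621, by 229640_x_at, at 9.09 to 12.23.

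LINC01003 read 8.08, 7.42, 13.08 and 13.54 in the same order, higher in both DLC1-labelled arrays. LINC02582 read 10.60, 10.19, 20.04 and 14.08, also higher in both. LINC01116, which lies beside MTX2, read 8.27, 11.13, 4.76 and 6.76, lower in both DLC1-labelled arrays by 0.80 and 0.72 and higher with TGF-beta by 0.43 and 0.51. None of these 3 reached 2-fold in any difference, but with arrays centred on housekeeping genes LINC01003 came to 1.01 with TGF-beta and LINC02582 to 1.04 without it.

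LINC00472, whose level has been tied to less aggressive breast tumours, read 11.34, 8.33, 8.20 and 7.57 in 220324_at. LINC00973 read 10.64, 6.66, 8.77 and 6.67, lower with TGF-beta in each background by 0.68 and 0.39. The other probe sets among the 10 with the highest means were steadier. LINC00674, by 227567_at, ranged from 6.64 to 9.13, LINC00467, by 224443_at, from 5.60 to 7.93, and LINC01806, by 236451_at, from 5.55 to 6.98.

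Differences were taken as log2 ratios of 2 arrays, and a probe set counted as changed at 2-fold, a log2 difference of 1. Of the 214 probe sets, 190 stayed within 2-fold in all 4 single differences and 24, each of a different gene, passed it in at least 1. With TGF-beta in the vector arrays, 6 rose, where 1.20% of all 29246 probe sets rose, and 2 fell, against 0.496%. In the DLC1-labelled arrays, 4 rose with TGF-beta against a background of 0.670%, and 1 fell against 0.103%. As shares of the 214, these 4 counts are 2.80%, 0.935%, 1.87% and 0.467%. Some that rose reached the limit only where they were high. LINC00842 and LINC02915 reached it only on the vector array with TGF-beta, and LINC02551, by 1552972_at, only on treated arrays. With every array at or above 0.38, 2 rose in each background, so the counts that rose were not independent of the selection.

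Between the DLC1-labelled arrays and vector, 5 were higher and 6 lower without TGF-beta, where 2.28% and 1.83% of all probe sets were. With TGF-beta 6 were higher and 10 lower, against 1.78% and 1.46%. The shares of the 214 are 2.34%, 2.80%, 2.80% and 4.67%. The count higher without TGF-beta thus sat near the background, and the count lower with TGF-beta lay furthest above it. Some of those 10, such as LINC00842 and LINC00944, reached the limit only on the vector array with TGF-beta, where they were high. With every array at or above 0.38 that count was 3, so it was not independent of the selection. With arrays centred on housekeeping genes the counts were 8 higher and 5 lower without TGF-beta and 8 and 7 with it, so the balance of higher and lower depends on the scaling. Of the 24 changed probe sets, 12 were at or above the limit on all 4 arrays, and the other 12 passed it only with help from the arrays where they were high.

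The shares differ with brightness. Of the 128 LINC probe sets whose highest value lay under 1, 3 rose with TGF-beta in each background. Of all such dim probe sets 0.598% and 0.239% rose. None of the 128 fell with TGF-beta, against 0.38% and 0.0978%. Between the backgrounds 1 was higher and none lower without TGF-beta, against 2.05% and 1.16%, and 3 were higher and 4 lower with it, against 1.65% and 1.08%. Of the 86 at 1 or above, 3 rose and 2 fell with TGF-beta in the vector arrays, against 1.47% and 0.549%, and 1 rose and 1 fell in the others, against 0.868% and 0.105%. Between the backgrounds 4 were higher and 6 lower without TGF-beta, against 2.38% and 2.14%, and 3 and 6 with it, against 1.84% and 1.64%. The 6 that were lower without TGF-beta were thus all among the brighter probe sets. At a dim background of 1.16% few would be expected among 128, so the absence there says little. Brightness is the highest of the 4 values, and LINC01279 counts as bright only through the vector array with TGF-beta. The medians of the LINC differences lay near 0. They were 0 with TGF-beta in either background, and -0.03 and -0.02 between the backgrounds without and with TGF-beta. The medians of all probe sets were -0.0041 and -0.02, and 0 and -0.01. The middle 50 percent of LINC differences ran from -0.17 to 0.20 and from -0.12 to 0.19 with TGF-beta, and from -0.24 to 0.22 and from -0.23 to 0.19 between the backgrounds.

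**Figure D1:**
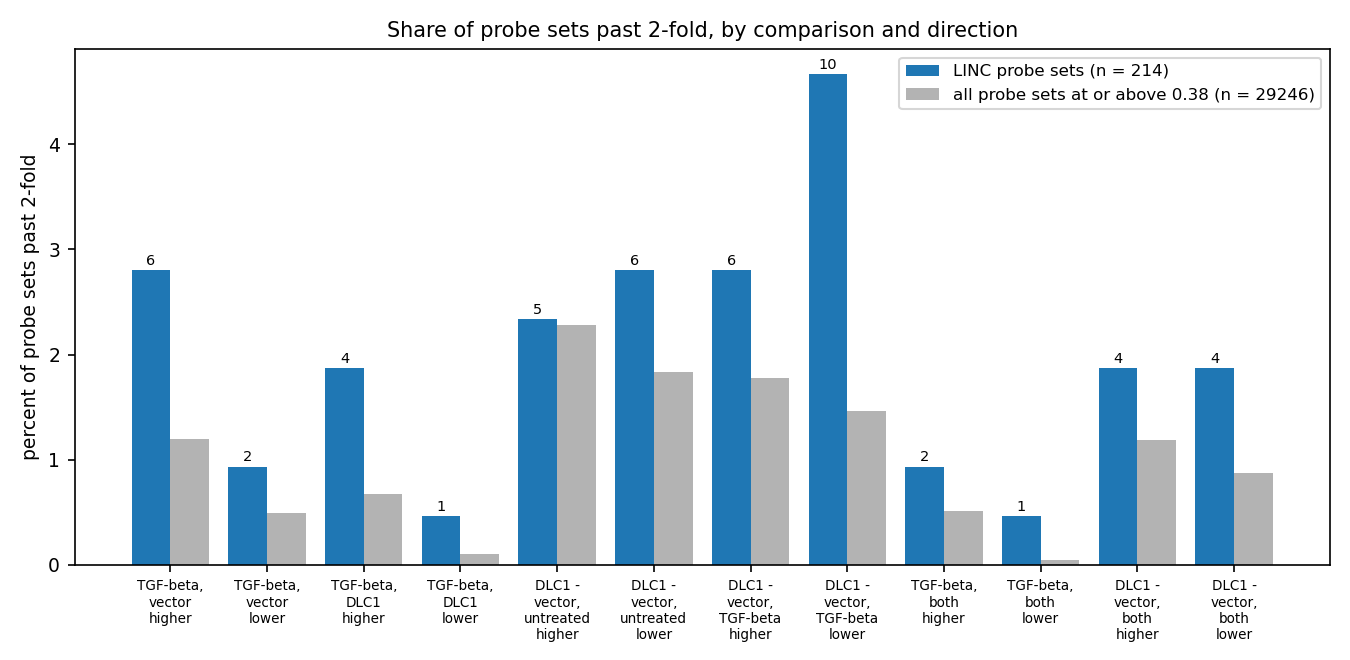
Percent of probe sets past 2-fold in each comparison and direction, for the 214 LINC probe sets (blue, with the number above each bar) and for all 29246 probe sets that reached the limit (grey). The tallest blue bar is the 10 LINC probe sets (4.67%) that were lower in the DLC1-labelled array with TGF-beta, where the background was 1.46%. With every array at or above 0.38, 3 were lower there, and the background under that filter was not counted.

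A few LINC probe sets differed by 2-fold with TGF-beta in the same direction in both backgrounds, in 2 differences that share no array. LINC01943 and 1 probe set of LINC02551 rose, and LINC00261 fell. Such shared differences made up 0.935% of the 214 upward and 0.467% downward, against 0.516% and 0.0445% of all probe sets. No LINC probe set went past 2-fold in opposite directions, and neither did any of all 29246 probe sets.

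LINC01943, a noncoding RNA that overlaps the noncoding RNA gene CYTOR in RefSeq, read 0.61 in the vector array and 3.88 with TGF-beta, and 0.71 in the DLC1-labelled array and 2.07 with TGF-beta. Both treated arrays lay above both untreated ones, which largely follows from its choice by 2-fold in both backgrounds. The log2 differences were 2.67 and 1.54, or 6.36-fold and 2.92-fold, and values rounded to 2 decimals allow 2.66 to 2.68 and 1.53 to 1.56. The response was 1.13 smaller on the log2 scale in the DLC1-labelled arrays. CYTOR itself read 0.96 and 1.29, and 0.86 and 0.71. Its differences with TGF-beta were 0.43 and -0.28, of the sign of LINC01943 in the vector arrays and of the opposite sign in the others, both within 2-fold.

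LINC02551, by 1552972_at, read 0.16 and 0.81 in the vector arrays and 0.12 and 0.54 in the DLC1-labelled arrays. The differences were 2.34 and 2.17, and rounding allows 2.29 to 2.40 and 2.10 to 2.25. Both untreated readings are near the 25th percentile of an array. Its other probe set, 227009_at, read 2.09, 2.06, 2.88 and 2.76 and did not move with TGF-beta, at -0.02 and -0.06. The probe sets of this gene thus part, and the rise cannot be assigned to the gene as a whole.

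LINC00261 is transcribed from beside FOXA2, which encodes a transcription factor of endodermal and epithelial development. It read 2.21 and 0.98 in the vector arrays, a fall of 2.26-fold, and 4.42 and 1.82 in the DLC1-labelled arrays, a fall of 2.43-fold. The log2 differences were -1.17 and -1.28. Its levels were also higher in the DLC1-labelled arrays, exactly 2-fold without TGF-beta, from 2.21 to 4.42, and by 0.89 on the log2 scale with it. The 2-fold difference sits at the limit of the rule and ended with the offset of 0.1 (0.97), with quantile normalization (0.99) and within rounding. FOXA2 read 5.24 and 2.99 in the vector arrays and 6.92 and 4.61 in those labelled DLC1. Its differences had the signs of those of LINC00261 but stayed within 2-fold, at -0.81 and -0.59 with TGF-beta and 0.40 and 0.62 between the backgrounds.

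The promoter windows of LINC01943 and LINC00261 are shown because these are the genes that moved with TGF-beta in both backgrounds by their only included probe set. Each window holds 250 bases before and 50 after the annotated start, is written 5′ to 3′ on the gene's strand, and comes from RefSeq on GRCh38.p14. That of LINC01943 is chr2:87459047-87459346, minus strand, and that of LINC00261 chr20:22578593-22578892, minus strand. Capitals mark matches to the searched motifs given further on.
LINC01943: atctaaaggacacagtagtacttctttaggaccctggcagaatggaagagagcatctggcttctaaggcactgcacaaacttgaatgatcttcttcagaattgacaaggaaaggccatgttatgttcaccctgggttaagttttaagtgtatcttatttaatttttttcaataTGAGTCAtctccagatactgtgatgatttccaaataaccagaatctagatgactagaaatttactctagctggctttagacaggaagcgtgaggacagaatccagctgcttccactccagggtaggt
LINC00261: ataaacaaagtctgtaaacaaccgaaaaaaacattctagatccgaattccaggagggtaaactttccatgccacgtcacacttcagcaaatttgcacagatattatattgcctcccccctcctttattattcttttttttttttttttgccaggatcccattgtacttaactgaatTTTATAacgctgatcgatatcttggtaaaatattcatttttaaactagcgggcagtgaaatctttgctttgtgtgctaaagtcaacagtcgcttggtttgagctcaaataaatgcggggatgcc
The LINC01943 window held the AP-1 motif TGACTCA, read on the other strand as TGAGTCA, with its first base at -77 from the start, and 4.95% of all promoters of this length hold it. That of LINC00261 held TATAAA on the reverse strand only, found on either strand in 11.5% of all promoters. The SMAD-type motif CAGACA was not found in these letters of either window, nor was the longer form GTCTAGA or the GC-rich form GGCGCC.

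**Figure D2:**
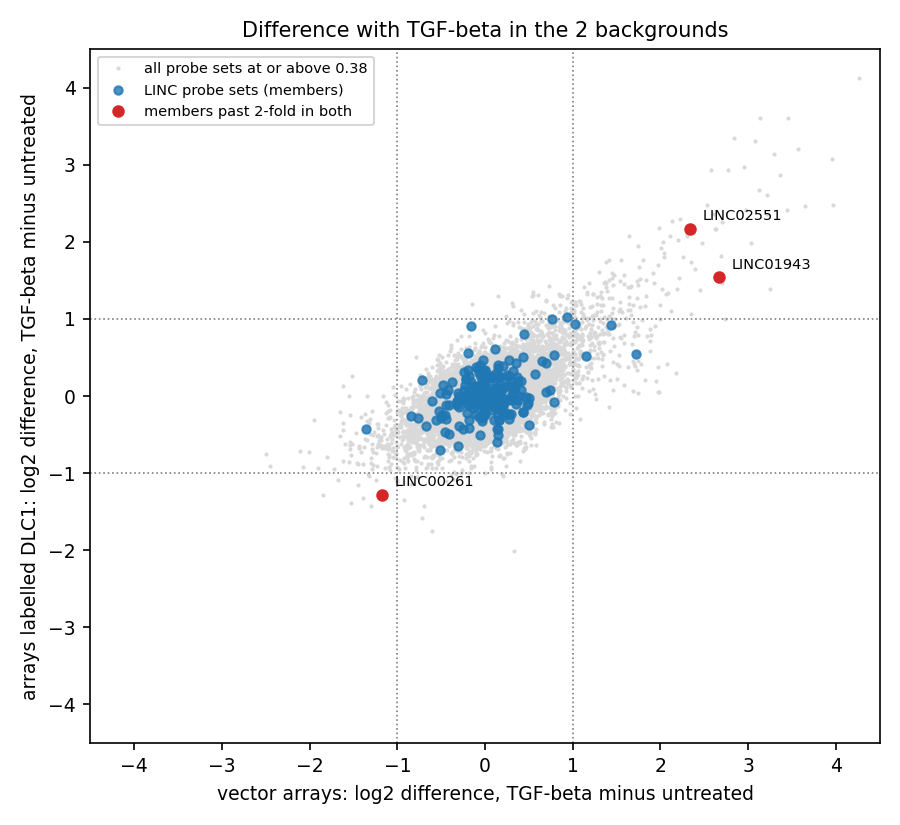
Log2 difference with TGF-beta in the vector arrays (horizontal axis) and in the DLC1-labelled arrays (vertical axis) for the 214 LINC probe sets (blue, red where past 2-fold in both) over all 29246 probe sets (grey). LINC02551, at 2.34 and 2.17, and LINC01943, at 2.67 and 1.54, stand at the upper right and LINC00261, at -1.17 and -1.28, at the lower left, and dotted lines mark 2-fold.

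Other RNAs passed 2-fold with TGF-beta in 1 background. LINC00842 read 0.13 and 0.43 in the vector arrays, a rise of 1.73, and 0.11 and 0.16 in the others, a difference of 0.54. LINC01279 rose from 0.42 to 1.14 in the vector arrays, by 1.44, and read 0.20 and 0.38 in the others, a difference of 0.93. LINC02915 rose from 0.23 to 0.51, by 1.15, with 0.14 and 0.20 in the others. All 3 read 0.42 or less on each untreated array.

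LINC01711 rose from 0.50 to 1.02 in the vector arrays, by 1.03, and read 0.43 and 0.82 in the others, a difference of 0.93. LINC00702, which lies beside the transcription factor gene KLF6, gave 0.93 in the vector arrays and rose by 1.03 in the others, from 0.48 to 0.98. LINC01560 gave 0.76 and rose exactly 2-fold in the DLC1-labelled arrays, from 0.38 to 0.76. These last 3 differed less between the backgrounds, on either side of the 2-fold line. With 0.1 added to each value before log2, LINC02915 came to 0.89, LINC01711 to 0.90, LINC00702 to 0.90 and LINC01560 to 0.84, so none of the 4 kept 2-fold. LINC01293 fell from 1.72 to 0.67 in the vector arrays, by 1.36, and read 0.77 and 0.57 in the others.

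Across the 214 probe sets the differences in the 2 backgrounds correlated with Pearson's r = 0.62 and a Spearman rank correlation of 0.31, given as a description, since probe sets share the 4 arrays. For all 29246 the values were 0.61 and 0.40. The interaction, which subtracts the response of the vector cells from that of the DLC1-labelled cells, reached 1 for 1 LINC probe set and -1 for 2, where 0.144% and 0.332% of all did. LINC01812 was the first at 1.07, and LINC00842 at -1.19 and LINC01943 at -1.13 were the others. With the same offset LINC01812 came to 0.84 and LINC00842 to -0.90. The interaction uses all 4 arrays.

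The contrast between the 2 backgrounds asks which noncoding RNAs differ with the DLC1 label. In both states, with no array in common, 4 LINC probe sets were higher and 4 lower, against 1.19% and 0.875% of all probe sets, and 6 and 2 with arrays centred on housekeeping genes. The 4 that were higher changed little with TGF-beta, and each background kept its own level. Of the 4 that were lower, 3 read under the limit in the DLC1-labelled array without TGF-beta.

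LINC01088, which lies beside PAQR3, read 1.64 and 1.53 in the vector arrays without and with TGF-beta, and 5.04 and 4.68 in the DLC1-labelled arrays. The differences were 1.62 and 1.61, or 3.07-fold and 3.06-fold. The 2 differences were nearly equal. Both DLC1-labelled arrays lay above both vector arrays, which largely follows from its choice by 2-fold in both states. Its other annotated probe sets, 1560890_at and 1560891_a_at, stayed at or under 0.14 on every array.

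LINC02864 read 1.17 and 0.94 in the vector arrays and 2.84 and 2.68 in the others, differences of 1.28 and 1.51. Its neighbour in RefSeq is LINC02582, also higher in the DLC1-labelled arrays, at 0.92 and 0.47. A dimmer probe set of LINC02864, 1569264_at, which missed the limit, read 0.21 and 0.20, and 0.35 and 0.30, and lay the same way, at 0.74 and 0.58. Both probe sets and the neighbour were higher in the DLC1-labelled arrays.

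LINC01191, which lies beside the actin-nucleation gene ACTR3, read 0.34 and 0.29 in the vector arrays, under the limit, and 0.87 and 0.96 in the others. The differences were 1.36 and 1.73. Its other annotated probe sets missed the limit. Of these, 230797_s_at read 0.09 on every array, and 243795_s_at gave 0.74 without TGF-beta and 0 with it. LINC00662, by 1558256_at, read 1.33 and 1.38 in the vector arrays and 3.15 and 3.18 in the others, differences of 1.24 and 1.20. LINC01133, by 239370_at, read 0.33 and 0.20, and 0.65 and 0.75. It gave 0.98 without TGF-beta, just under the rule, and 1.91 with it. Its other probe set, 238901_at, stayed at or under 0.09. LINC01119 read 0.31 and 0.27, and 0.38 and 0.56, and passed 2-fold with TGF-beta, at 1.05, but not with the offset of 0.1, at 0.83.

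LINC01812, beside the gene C1D, which encodes a cofactor of the nuclear RNA exosome, was lower in the DLC1-labelled arrays. It read 1.22 and 1.09 in the vector arrays and 0.24 and 0.45 in the others, differences of -2.35 and -1.28. LINC00622, beside ZNF697, read 1.09 and 1.48 in the vector arrays and 0.35 and 0.61 in the others, at -1.64 and -1.28. LINC01111 read 2.57 and 2.21, and 0.87 and 1.01, at -1.56 and -1.13. LINC01279 read 0.42 and 1.14, and 0.20 and 0.38, at -1.07 and -1.58. In none of the 4 did the vector and DLC1 arrays overlap, which largely follows from their choice as lower by 2-fold in both states. The share of all probe sets with such a separation was not counted. With arrays centred on housekeeping genes, which put the median of all probe sets at 0.12 without and 0.13 with TGF-beta, LINC01111 came to -0.99 with TGF-beta and LINC01279 to -0.95 without it, so both fell short of 2-fold in 1 state.

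LINC00472, by 235771_at, fell from 5.90 to 2.60 without TGF-beta, by 1.18, and read 4.54 and 2.94 with it, at -0.63. LINC01293 was lower without TGF-beta, by 1.16, and read 0.67 and 0.57 with it. With TGF-beta, LINC01094, beside ANXA3, read 0.48 and 0.17, LINC00842 gave -1.43 and LINC02915 -1.35. LINC01224 read 1.58 and 0.70, at -1.17. LINC00857, at 0.84 and 0.42, and LINC00944, at 0.40 and 0.20, were lower by exactly 2-fold, and both fell short with the offset of 0.1, at -0.85 and -0.74, with housekeeping centring, with quantile normalization and within rounding. For LINC01094, LINC00842, LINC02915 and LINC00944 the lower reading is 0.20 or less, near the dim end of the arrays, so the size of the fold is uncertain. The other annotated probe sets of LINC00944 stayed at or under 0.29 on every array.

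**Figure D3:**
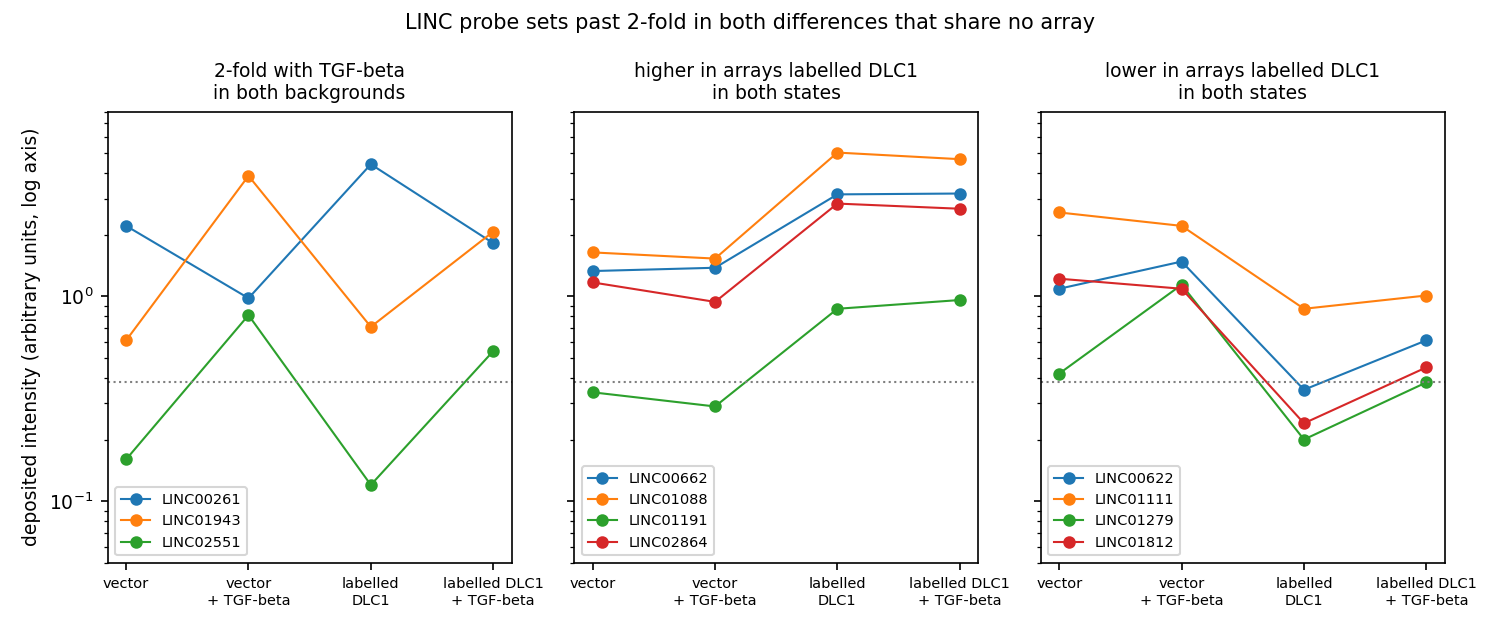
Deposited intensity on the 4 arrays (log axis, 1 array per group) of the 11 LINC probe sets past 2-fold with TGF-beta in both backgrounds (left) or between the DLC1-labelled arrays and vector in both states (middle and right). Lines join the readings of 1 probe set, and the dotted line is the limit of 0.38. LINC01088 sits at 1.53 to 1.64 in the vector arrays and 4.68 to 5.04 in the DLC1-labelled arrays.

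The promoter windows of LINC01088, LINC00662 and LINC01812 are shown as examples of RNAs that were higher or lower in the DLC1-labelled arrays in both states. They are chr4:78971498-78971797, plus strand, chr19:27793891-27794190, minus strand, and chr2:67825513-67825812, minus strand, all in GRCh38.p14 from RefSeq and written as above.
LINC01088: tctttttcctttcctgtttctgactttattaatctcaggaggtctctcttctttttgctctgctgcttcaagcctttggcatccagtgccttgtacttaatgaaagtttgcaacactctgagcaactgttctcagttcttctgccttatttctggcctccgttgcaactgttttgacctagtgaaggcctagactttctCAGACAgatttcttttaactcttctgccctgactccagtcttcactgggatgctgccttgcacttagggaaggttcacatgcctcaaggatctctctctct
LINC00662: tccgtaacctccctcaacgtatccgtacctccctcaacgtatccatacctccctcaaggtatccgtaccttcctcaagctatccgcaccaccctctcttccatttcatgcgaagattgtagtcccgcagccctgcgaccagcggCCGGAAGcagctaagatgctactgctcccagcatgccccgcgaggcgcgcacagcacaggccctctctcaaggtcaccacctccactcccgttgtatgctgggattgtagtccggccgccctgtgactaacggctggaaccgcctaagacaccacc
LINC01812: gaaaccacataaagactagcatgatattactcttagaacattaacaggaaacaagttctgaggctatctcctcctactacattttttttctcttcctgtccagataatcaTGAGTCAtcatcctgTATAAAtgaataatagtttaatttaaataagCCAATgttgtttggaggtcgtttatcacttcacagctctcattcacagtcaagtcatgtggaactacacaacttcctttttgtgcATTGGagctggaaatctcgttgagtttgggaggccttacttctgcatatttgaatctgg
The LINC01088 window held CAGACA, present on either strand in 16.9% of all promoters, and 1 CpG. That of LINC00662 held the ETS-type motif CCGGAAG, present in 10.3%, and 20 CpG. That of LINC01812 held TGACTCA on the reverse strand, TATAAA with its first base at -125, and CCAAT on each strand, with 2 CpG. CCAAT is present in 34.6% of all promoters. The windows of these 3 examples shared no searched motif. That of LINC00622, also lower in both states and not shown, held TATAAA and CCAAT, as did that of LINC01812.

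**Figure D4:**
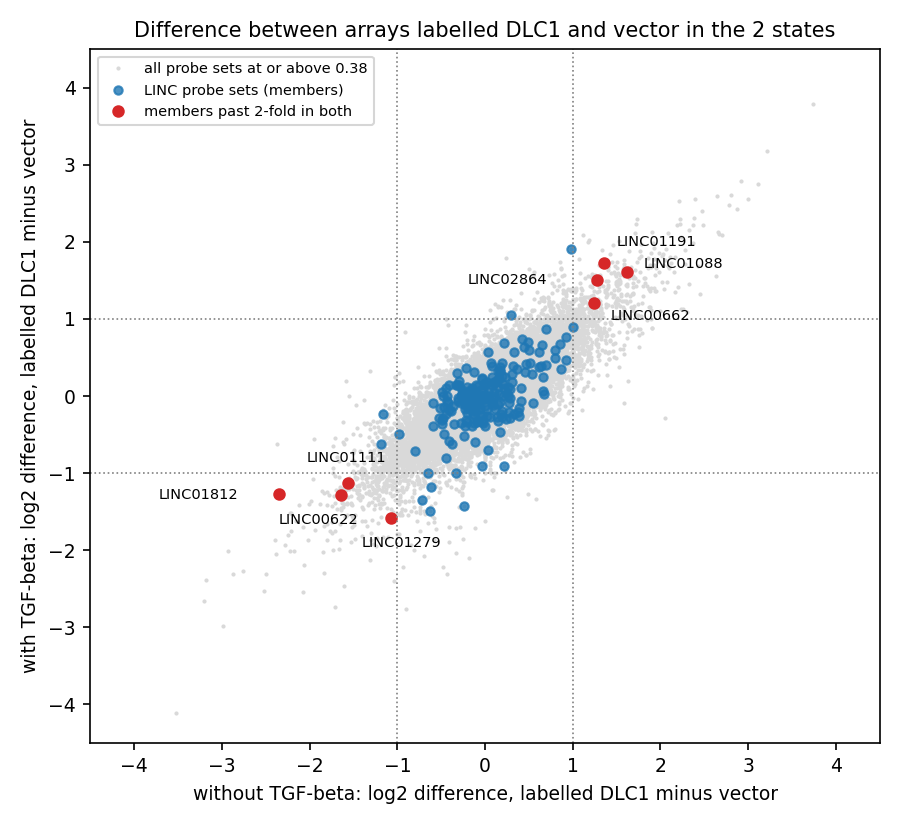
Log2 difference between the DLC1-labelled arrays and vector without TGF-beta (horizontal axis) and with it (vertical axis) for the 214 LINC probe sets (blue, red where past 2-fold in both) over all 29246 probe sets (grey). The 4 red points at the upper right and the 4 at the lower left are named, LINC01812 lies farthest to the left at -2.35, and dotted lines mark 2-fold.

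Probe sets of a gene gave a measure of how far readings annotated to the same gene part on the same arrays. They need not report on the same RNA. Over the 28 genes with 2 or more included probe sets, the gap between the highest and lowest difference within a gene had a median of 0.20 for TGF-beta in vector cells and 0.30 for TGF-beta in DLC1-labelled cells. Between the backgrounds it was 0.29 without and 0.28 with TGF-beta. Probe sets of 12 and 11 genes lay on both sides of 0 between the backgrounds. The widest gaps were 2.36 and 2.23 with TGF-beta, in LINC02551, and 0.88 in LINC02551 and 1.13 in LINC00662 between the backgrounds.

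LINC00662 had 5 included probe sets, and all 5 were higher in the DLC1-labelled arrays in both states. Without TGF-beta they gave 1.24, 0.67, 0.65, 0.42 and 0.86 for 1558256_at, 232281_at, 235191_at, 236653_at and 242663_at, and with it 1.20, 0.07, 0.66, 0.74 and 0.35. Only 1558256_at passed 2-fold. The probe set with the highest mean, 235191_at, read 3.25 and 4.04 in the vector arrays and 5.10 and 6.38 in the others.

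LINC00674 had 4 probe sets and LINC00960 3, and all of these too were higher in the DLC1-labelled arrays in both states, at 0.25 to 0.69 and at 0.09 to 0.33. LINC00674 by 225055_at read 2.65 and 2.63 in the vector arrays and 3.30 and 3.46 in the others. The 4 included probe sets of LINC01128 parted. Its 1557055_s_at gave 0.31 and 0.19 and its 235497_at -0.49 and -0.36. LINC00667 parted likewise, with 0.20 and 0.16 for 226235_at and -0.47 and -0.49 for 243426_at.

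LINC00205 had 5 included probe sets. With TGF-beta in the vector arrays they gave 0.46, 0.41, 0.37, 0.21 and -0.06, so 4 of these 5 were higher. Its dim 1552819_at and 1569032_at, which missed the limit, gave -0.19 and -0.17. LINC00342 had 3 included probe sets, and with TGF-beta all were lower in the DLC1-labelled array than in the vector array, at -0.34, -0.59 and -0.70. LINC00537, LINC01588 and LINC02693 had 3 included probe sets each, none past 0.50 in either direction between the backgrounds.

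**Figure D5:**
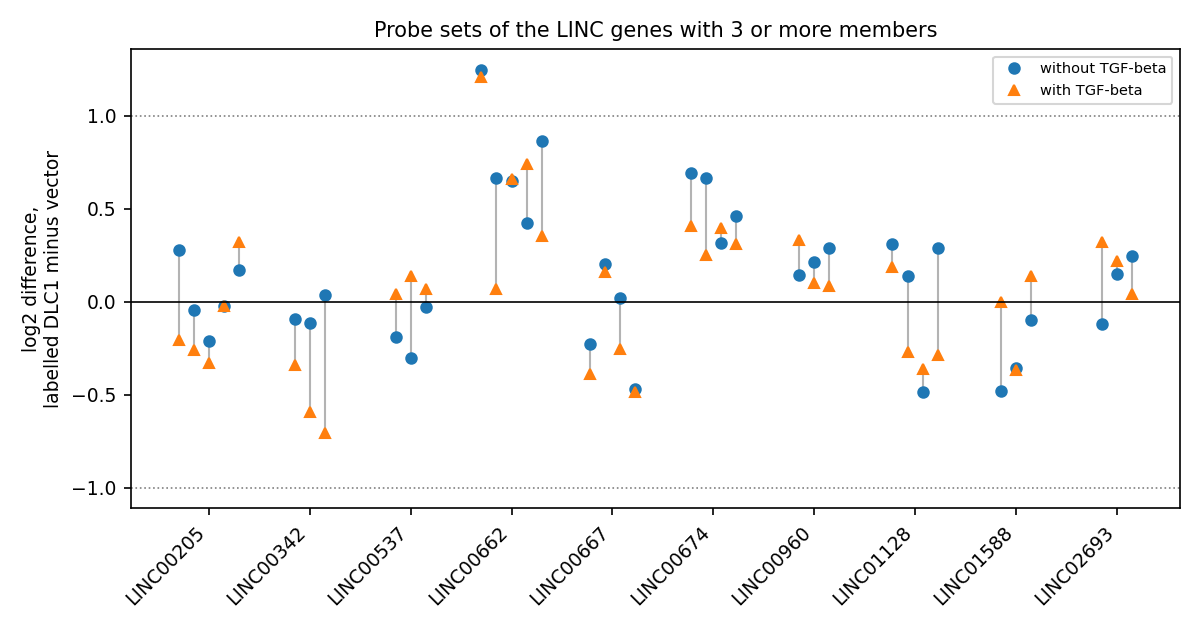
Log2 difference between the DLC1-labelled arrays and vector for each probe set (1 pair of marks) of the 10 LINC genes with 3 or more included probe sets, without TGF-beta (circles) and with it (triangles). The 5 probe sets of LINC00662 all lie above 0, and those of LINC01128 lie on both sides, and dotted lines mark 2-fold.

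Position was not part of the selection. Of the 169 genes, 165 matched the RefSeq gene table by gene ID, all as long noncoding RNAs, and LINC00973, LINC01279, LINC01293 and LINC01296 did not. No annotated microRNA hairpin lay within any of the 165, and 21 overlapped the nearest measured gene. For each LINC gene the nearest measured gene on either side was taken by its brightest probe set. A neighbour at or above the limit was found for 139 LINC genes, which gave 201 pairs.

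Among LINC genes that passed 2-fold by their brightest probe set, no neighbour at or above the limit passed 2-fold in the same difference, in either direction. These genes had 1 to 9 such neighbours in each direction and comparison, and of all 198 neighbours only 6 and 5 passed 2-fold with TGF-beta in the 2 backgrounds, and 7 and 7 between the backgrounds, so the absence says little about the LINC genes. For the fall with TGF-beta in both backgrounds this covers LINC00261 and FOXA2. Across the 201 pairs the LINC difference and the neighbour difference correlated weakly, with Pearson's r of 0.22 and 0.14 with TGF-beta in the vector and labelled DLC1 arrays and 0.07 and 0.11 between the backgrounds without and with TGF-beta. These are descriptions, and some pairs share a gene.

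A few pairs lay together. LINC01560 overlaps the zinc finger gene ZNF41, and with TGF-beta they gave 0.76 and 0.84 in the vector arrays, and ZNF41 gave 0.89 beside the 2-fold rise of LINC01560 in the others. The array's probes may not tell overlapping genes apart. LINC02915 neighbours THBS1, the gene of the matrix protein thrombospondin, and both were lower in the DLC1-labelled arrays. LINC02915 gave -0.72 and -1.35, and THBS1 -1.68 and -0.78. Other pairs did not lie together. ACTR3 gave -0.13 and -0.14 beside LINC01191, PAQR3 -0.52 and -0.29 beside LINC01088, and LINC02987, which overlaps LINC00662, -0.05 and -0.06.

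Promoter windows were found for 116 of the 169 genes, in 131 entries because some genes have several starts. The median GC content was 57.3%, against 47.7% for 511 windows of LINC genes under the limit, 50% for all long noncoding RNAs and 62.3% for protein-coding genes. The median number of CpG was 9, 4, 5 and 21. At least 15 CpG were found in 39.7%, 17.2%, 26.0% and 62.3%. The windows of the included LINC genes thus lay between those of the other LINC genes and those of protein-coding genes. Of the included windows 13.0% held TATAAA, 9.16% TGACTCA, 15.3% CAGACA, 0.763% GTCTAGA, 16.8% GGCGCC, 10.7% CCGGAAG and 40.5% CCAAT. In all 35116 windows the shares were 11.5%, 4.95%, 16.9%, 1.44%, 19.2%, 10.3% and 34.6%. Motifs were sought as exact letters on both strands, TGACTCA and TGAGTCA being 1 motif read on opposite strands, and a match is no evidence of binding.

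Long noncoding RNAs that carry other names were taken from a list of 60, of which 45 were measured and 32 reached the limit by their brightest probe set. None passed 2-fold with TGF-beta in either background, where 1.21% and 0.792% of 13137 genes rose and 0.693% and 0.107% fell, and the medians were 0.01 and -0.01. Between the backgrounds, 3 were higher and 2 lower without TGF-beta, against 1.63% and 2.34% of genes, and 1 was higher and 1 lower with it, against 1.46% and 1.64%. The list's medians were 0.14 and 0.02, and those of all genes -0.03 and -0.02.

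UCA1, first described in bladder cancer, read 7.81 and 13.31 in the vector arrays and 18.15 and 29.18 in the others, higher by 1.22 and 1.13. The difference with TGF-beta was 0.77 and 0.69. PRKCQ-AS1, an antisense RNA, was lower by 1.08 and 1.26, from 0.55 to 0.26 and from 0.36 to 0.15. MALAT1, an abundant nuclear RNA, read 28.51 and 31.04 in the vector arrays and 63.55 and 52.42 in the others, at 1.16 and 0.76. MIR210HG, the host of a microRNA induced by hypoxia, rose exactly 2-fold without TGF-beta, from 0.50, and gave 0.46 with it. DLEU1 fell from 15.62 to 6.90 without TGF-beta, by 1.18, and gave -0.83 with it.

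The nuclear exosome and its adaptors degrade many long noncoding RNAs. All 17 measured members of a list of 18 reached the limit, and none passed 2-fold in any difference. Their medians were -0.12 and -0.03 with TGF-beta and -0.24 and -0.11 between the backgrounds, where those of all genes were -0.03 and -0.01, and -0.03 and -0.02. EXOSC9, a core subunit, gave the lowest values between the backgrounds, at -0.92 and -0.67. The helicase gene MTREX gave -0.51 and -0.49 and the catalytic subunit gene EXOSC10 -0.55 and -0.60. Other members lay above 0 in both states, EXOSC6 at 0.62 and 0.19, EXOSC5 at 0.38 and 0.19, ZCCHC8 at 0.30 and 0.26 and C1D at 0.11 and 0.16.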

How the data were processed

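The values deposited by the authors are probe set intensities on a linear scale, 0.05 to 265.58, rounded to 2 decimals, in arbitrary units. Per the submitters' processing notes the tool was RMA (no version named), which corrects background, equalises the arrays' distributions and summarises probes, and which would hide a shift of most genes. Each of the 4 groups has 1 array, grouped by its label, and this limits precision. Symbols come from the platform annotation: 41097 probe sets have 1 symbol, 1801 several, and 11777 none here.

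Members and lists were chosen with earlier results of these data known. Log2 was taken with no offset, and a change means 2-fold. Named probe sets were those past 2-fold in both differences that share no array, the 5 highest and 5 lowest past 2-fold of each difference, the 10 with the highest means, 5 on each side of the limit, genes with 3 or more probe sets, list members past 2-fold, and neighbours. LINC01711, LINC01119, LINC01224, LINC00857, LINC00944 and the other annotated probe sets of named genes were added after their values were seen. Ranges for rounding take each value within 0.005. Python 3.11.15, numpy 2.4.6, pandas 2.3.3 and matplotlib 3.10.9 were used. Alternatives were an offset of 0.1, other filters, centring on 12 measured housekeeping genes, quantile normalization, genes in place of probe sets, dropping _s_at and _x_at sets, and a 1.5-fold rule.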

Additional observations from a re-analysis of the deposited data

Results flagged for a closer look

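LINC01812 had differences with TGF-beta of opposite sign in the 2 backgrounds, with an interaction of 1.07 on the log2 scale. It read 1.22 and 1.09 in the vector arrays, a difference of -0.16, and 0.24 and 0.45 in the DLC1-labelled arrays, a difference of 0.91. Among the 214 LINC probe sets it is the single one with opposite signs and an interaction of 1 or more in size. With 1 array per group the difference was not tested. Rounding allows 1.01 to 1.13, and with an offset of 0.1 the interaction is 0.84.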

How the results depend on the processing

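No paired analysis was possible because the groups share fewer than 2 replicate numbers, and leaving out an array would empty its group. An additive fit over the 4 arrays, which leaves the interaction as its residual, was not run. With every array at or above 0.38, there were 2 higher with TGF-beta in the vector arrays, 2 higher in those labelled DLC1, 3 lower between the backgrounds without TGF-beta, 3 higher and 3 lower with it, 0 higher and 1 lower in the interaction, 1 higher with TGF-beta in both backgrounds and 1 lower for DLC1 in both states, and this filter drops dim probe sets by construction. Of the 11 changes shared by both differences, 6 remained. With an offset of 0.1, 2 were higher with TGF-beta in the DLC1-labelled arrays, the interaction counts were 0 and 1, and LINC01279 alone of the 11 was lost. Without a filter 2 passed in the interaction upward, and LINC02910 was added to the 11. With arrays centred on housekeeping genes, 8 were higher and 5 lower without TGF-beta, 8 and 7 with it, and 6 and 2 in both states, the medians between the backgrounds were 0.0899 and 0.12, LINC01111 and LINC01279 were lost and LINC00261 and LINC01133 added. At 1.5-fold the counts higher and lower were 14 and 7, 9 and 4, 21 and 14, 17 and 19 and, in the interaction, 6 and 12, with 6 higher with TGF-beta in both backgrounds and 11 and 10 for DLC1 in both states. Counts by genes, with quantile normalization or without _s_at and _x_at probe sets stayed within 1.5 times. The share of all probe sets past the fold was not counted under any of these alternatives, so their counts have no background. Of the 43 differences past 2-fold of all changed or named probe sets, 11 fell short with the offset, 4 with housekeeping centring and 4 with quantile normalization. None changed sign under the offset, centring, quantile normalization or rounding. For the 128 probe sets that peaked under 1, low signal over background limits the size of any fold.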
